A study of Caenorhabditis elegans with 4 samples.

Results

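PEB-1 peaks that lay close to another PEB-1 peak were examined in Caenorhabditis elegans hermaphrodites at the second larval stage (L2). A peak of the authors' combined list was counted as close when the distance to a neighbour on the same chromosome, taken as the later start minus the earlier end, was at most 1000 bp. This rule kept 250 of 1854 combined peaks (13.5%), and it joined them into 116 groups. Of these groups, 102 were pairs, 12 held 3 peaks and 2 held 5 peaks. The members were thus selected on the start and end positions of the peaks, and not on their q values. The remaining 1604 combined peaks had no neighbour within that distance and serve as the comparison.

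PEB-1 belongs to the transcription factors that bind DNA through a FLYWCH zinc finger, a fold held together by a zinc ion, and in the worm it is known for its expression in the pharynx, the organ of feeding. Regulatory DNA often holds several binding sites for a factor within a short stretch. In chromatin immunoprecipitation and sequencing (ChIP-seq) a broad stretch of enriched DNA can also be reported as several intervals. A peak caller can close an interval where the signal falls below its threshold. Peak positions alone do not tell these cases apart.

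All libraries came from strain OP86, which carries unc119(ed3) and the transgene wgIs86, a peb-1 gene with TY1, EGFP and FLAG tags together with unc119, placed into the animals by bombardment. Worms grew at 20 °C and were fixed with 2% formaldehyde. The series holds 2 ChIP libraries, made with an antibody against GFP, and 2 inputs of total chromatin kept back from the lysates, and no untagged strain was analysed here. PEB-1 was therefore read through the tagged copies and in whole animals, so the tissue in which a site was bound is not known, and separate cultures for the 2 replicates are not stated in the labels. The authors' values are 3 lists of intervals on WormBase build WS220, each interval with a q value, and a larger −log10 q stands for a smaller q. The combined list has 1854 peaks, the replicate 1 list 1095 and the replicate 2 list 153. Read depth is unknown, and no list was used here for the inputs.

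Gaps were found in every bin of 100 bp from 201 bp up to the limit. The 134 gaps inside groups ranged from 201 to 995 bp, with a median of 579 bp and quartiles of 369 and 801 bp, whereas the median gap over the whole combined list was 26826 bp. The bins of 100 bp held 19 gaps from 201 to 300 bp, 24 from 301 to 400 bp, 8 from 401 to 500 bp and 17 from 901 to 1000 bp. The next bin, just past the limit, held 19. No break in the distribution thus marked 1000 bp, and no list held a gap under 201 bp. Whether the caller joined intervals across shorter gaps is not stated. Midpoints of neighbouring close peaks lay a median of 874 bp apart.

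**Figure D1:**
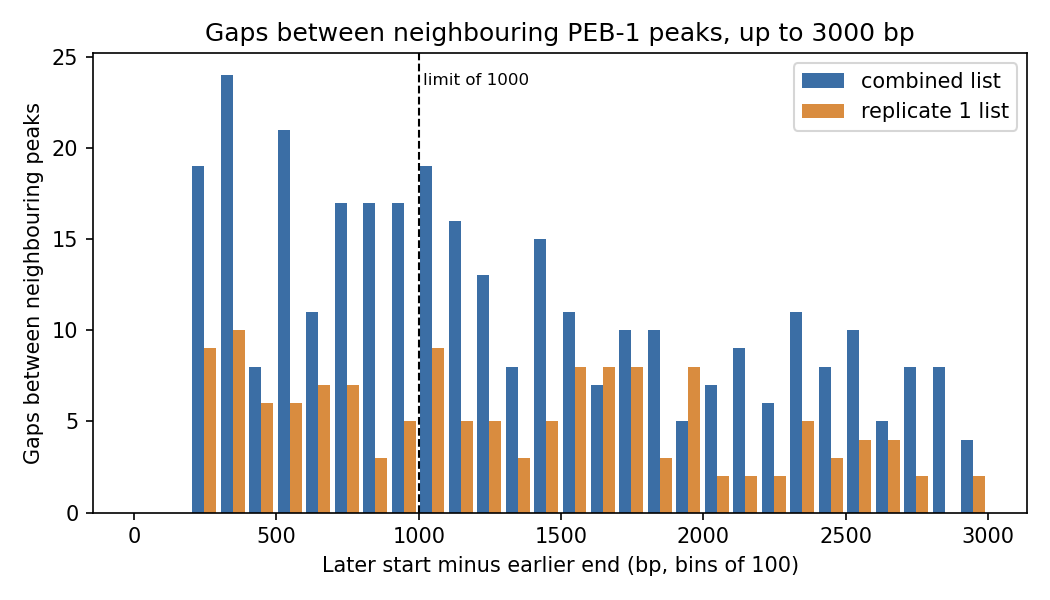
The plot shows the number of gaps between neighbouring peaks (vertical axis) by gap size in bins of 100 bp (horizontal axis), for the combined and the replicate 1 lists. Counts per bin in the combined list were alike on both sides of the limit of 1000 (17 and 19), and the bins below 201 bp were empty in both lists.

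The pairs with the smallest gaps lay on chromosomes I, II, V and X. The smallest gap, 201 bp, separated 2 strong peaks on chromosome I, 527368 to 527696 (q = 4.32e-12) and 527897 to 528296 (q = 8.62e-08). The next were a gap of 209 bp on chromosome II between 6926109 to 6926232 and 6926441 to 6926788, and a gap of 216 bp on chromosome I between 6582384 to 6582480 and 6582696 to 6582853. A further gap of 216 bp lay on chromosome X between 11605735 to 11606083 and 11606299 to 11606345. A gap of 217 bp lay on chromosome V between 6355362 to 6355435 and 6355652 to 6355666. In all 5 of these pairs but the first, at least 1 peak was under 200 bp wide.

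Just inside the limit, a gap of 995 bp on chromosome II joined a peak of 49 bp (9281619 to 9281667, q = 0.00834) to one of 465 bp (9282662 to 9283126, q = 1.10e-19). A gap of 986 bp on chromosome II (202048 to 203034) and a gap of 971 bp on chromosome V (1154322 to 1155293) each joined 2 peaks of at most 12 bp. Another gap of 971 bp on chromosome V joined 13413325 to 13413680 to 13414651 to 13415060. Just outside, gaps of 1006 bp on chromosome II (7404291 to 7405297), 1007 bp on chromosome I (9854368 to 9855375) and 1009 bp on chromosome V (10716080 to 10717089) each separated peaks of 191 bp or more. The first of these peaks, 7404101 to 7404291, missed a group on chromosome II by 6 bp.

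Close peaks had a larger median width than the other combined peaks, with intervals that overlapped at their edges, and a similar median q. Their median width was 194 bp (95% exact order-statistic interval 158 to 212, quartiles 83 and 342), against 150 bp (140 to 162) for the others. Peaks under 50 bp made up 16.0% of close peaks (40 of 250), 26.7% of the others, and 25.2% of the combined list. Peaks of 500 bp or more made up 9.20% of close peaks and 4.68% of the others. Median −log10 q was 3.46 (3.11 to 3.81) for close peaks and 3.29 (3.24 to 3.41) for the others, and these intervals overlapped. Peaks with a q below 1e-05 numbered 52 of 250 (20.8%, exact binomial interval 15.9 to 26.4), beside 18.3% of the combined list. Widths, q values and positions come from the same calls, so these differences are a description and carry no test. All intervals reflect counting error alone and treat peaks as independent, although close peaks share a place.

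Close peaks were 8 of the first 20 by q (40.0%, exact binomial interval 19.1 to 63.9), 21 of the first 100, 77 of the first 500 (15.4%) and 67 of the weakest 500 (13.4%), against 13.5% of the list. The interval for the first 20 does not include 13.5%, and neither does that for the first 50 (13 close peaks, interval 14.6 to 40.3). For the first 100 the share of the list lay narrowly outside the interval (13.484%, against 13.494 to 30.291). The intervals for the first and the weakest 500 include it. The first 20, 50 and 100 are nested, so they are not separate evidence. The 8 close peaks among the first 20 were on chromosomes I, II, III and X.

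Peaks of the same group differed in q. The strongest peak of each group had a median −log10 q of 4.59 (4.26 to 4.94), and the remaining 134 close peaks had a median of 2.71 (2.60 to 2.90). Taking out the strongest peak of each group fixes the direction of this difference and also lowers the rest, so neither median can be read against that of the other 1604 peaks. The strongest peaks had a median width of 240 bp (200 to 296) and the remaining ones 134.5 bp (115 to 179). In 69 of the 102 pairs the stronger peak was also the wider. Among the other 1604 peaks too, median −log10 q was higher in wide peaks (2.81 under 50 bp, 7.06 at 500 bp or more). The division by q thus favours both of these width results. The stronger peak came first along the chromosome in 51 pairs and second in the other 51, so neither side was favoured. The difference in −log10 q within a pair had a median of 1.37 and quartiles of 0.62 and 2.53. Across the 102 pairs, the −log10 q values of the first and second peak had a Spearman's rho of 0.04, a description across pairs that share libraries and caller.

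**Figure D2:**
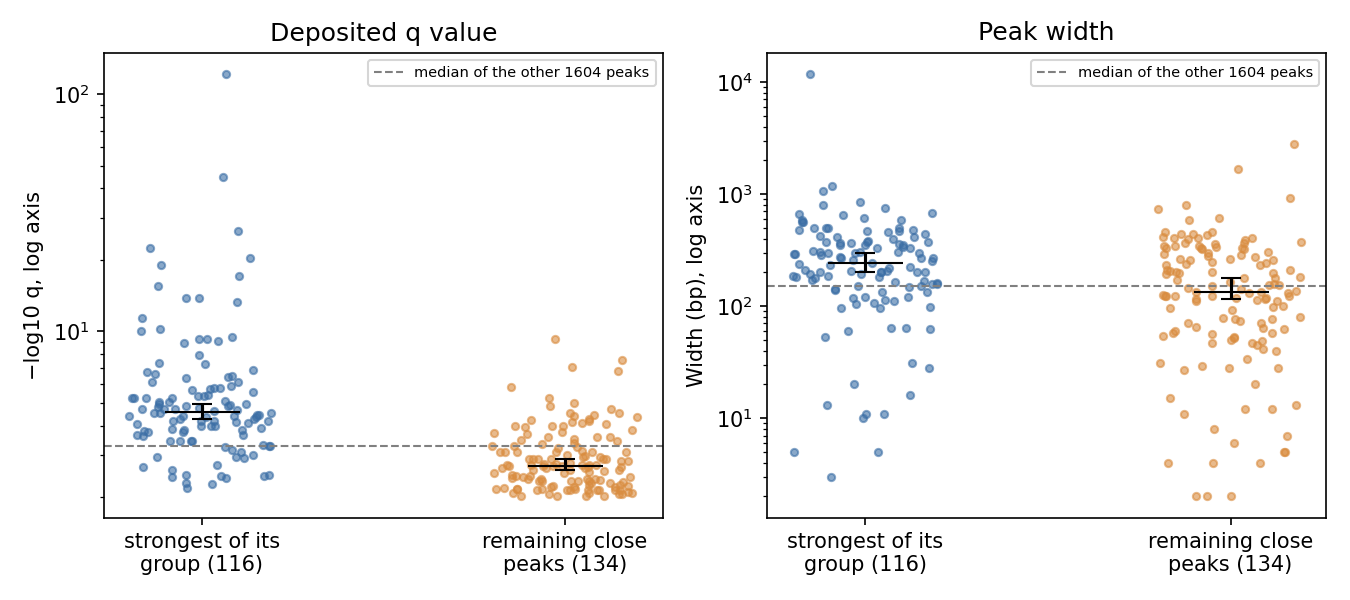
The plots show −log10 q (left, log axis) and width in bp (right, log axis) of each close peak, divided into the strongest of its group and the remaining close peaks. Black bars are medians with 95% order-statistic intervals, and the medians on the left are 4.59 and 2.71. The dashed line is the median of the other 1604 combined peaks, for scale only, since the division by strength sets the medians of the close peaks apart.

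A peak with q below 1e-05 was present in 46 of the 116 groups, and 6 groups had 2 of them. Peaks this strong made up 20.8% of close peaks and 18.3% of the combined list. At such shares few groups with 2 would be found in any case, so the count is a description only. On chromosome V, 11532194 to 11532398 and 11532967 to 11533225 had almost equal q values (1.34e-07 and 1.46e-07). On chromosome X, 12655077 to 12655820 (q = 4.64e-14) was followed by 12656524 to 12656978 (q = 2.74e-08). The other 4 such groups were the pair with the smallest gap on chromosome I, the pair at 9380251 to 9382021 on the same chromosome, the pair at 7405297 to 7406712 on chromosome II and the group of 5 on chromosome X.

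Of the 10 groups with the strongest peaks, 7 were a strong peak with 1 weaker neighbour. First came the group of 5 on chromosome X at 2200467 to 2219681. Second was a pair on chromosome I, in which 9380251 to 9380487 (q = 5.62e-06) lay 481 bp before 9380968 to 9382021 (q = 2.20e-45), and replicate 1 had a separate peak at each place (q = 0.00527 and 3.07e-28). On chromosome III, the leading groups were 8799933 to 8802579, with 3 peaks, and 1925060 to 1926692, whose peaks had q values of 3.15e-23 and 6.07e-05. Chromosome II held 3 of the 10, at 10501609 to 10503098, 9281619 to 9283126 and 11619101 to 11620483, with best q values of 4.62e-21, 1.10e-19 and 8.67e-18. Their weaker peaks had q values of 2.83e-05, 0.00834 and 0.00167. On chromosome X the other groups were 4961537 to 4962720, 15274003 to 15277020 and 11473325 to 11474634. The strongest group on chromosome V lay at 12736189 to 12736863, where a peak of 417 bp (q = 6.42e-11) was followed by one of 2 bp (q = 0.00321). The strongest on chromosome IV lay at 6575994 to 6577009 and had a best q of 1.68e-06.

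The group of 5 on chromosome X covered the longest stretch of all 116. It spanned 19215 bp, of which its peaks covered 91.5%, while the median group spanned 1033 bp. The peak at 2206318 to 2218070 was the widest combined peak (11753 bp) and had the lowest q (4.36e-122). Before it lay peaks of 2793 bp (2200467 to 2203259, q = 0.000266), 456 bp (2203512 to 2203967, q = 0.00294) and 1658 bp (2204299 to 2205956, q = 0.00497), and after it one of 931 bp (2218751 to 2219681, q = 4.88e-10). The 3 weaker peaks on the left were absent from the replicate 1 list, and 2 of these 3 were in the replicate 2 list, at q = 0.00647 and 0.00812. Replicate 1 cut the widest peak into 2 pieces 205 bp apart, 2208055 to 2210657 and 2210862 to 2218103, whereas replicate 2 reported 1 peak there, 2207307 to 2217961. This was the sole group with 4 peaks in the replicate 2 list. The endogenous peb-1 gene, copies of which the transgene adds, is on chromosome X, and unc-119 is on chromosome III. The gene table used for this follows another assembly, so whether this stretch contains peb-1 was not analysed here.

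In contrast, the group of 5 on chromosome V, 6352462 to 6355666, was made of short peaks. Their widths were 179, 113, 368, 74 and 15 bp, and their q values were 0.000167, 0.0069, 9.59e-11, 0.00714 and 0.00035 in order along the chromosome. The middle peak, 6354225 to 6354592, overlapped both replicate lists. Of its neighbours, 3 overlapped replicate 1 and none overlapped replicate 2. Replicate 1 thus had 4 separate peaks within this stretch.

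Among the 12 groups of 3, the middle peak was the strongest in 8. The clearest case was chromosome III, 8799933 to 8802579, where the middle peak (8801374 to 8802229, q = 4.10e-27) lay between peaks with q values of 0.000147 and 0.00051. On chromosome X, 15274003 to 15277020, the middle peak of 1181 bp (q = 1.65e-14) lay between peaks with q values of 0.00185 and 0.002. Chromosome III also held groups at 7728457 to 7730557 and 5502908 to 5504405. Chromosome II held 4 groups of 3, at 10546831 to 10549143, 10597765 to 10600200, 11634132 to 11636112 and 14405163 to 14406811. Chromosome I held 2, at 1835483 to 1837027 and 6581328 to 6582853, and chromosome V held 2, at 13374031 to 13375963 and 18717698 to 18720305. Chromosome IV held none. In 13 of the 14 groups with 3 or more peaks, the strongest peak was also the widest, and in 11 of the 14 it overlapped replicate 1. The exception in width was the last group on chromosome V, in which no peak overlapped either replicate. Wider peaks were also stronger among the other combined peaks, with a median −log10 q of 2.81 under 50 bp and 7.06 at 500 bp or more. Replicate 1 overlapped 13.6% and 88.0% of the other peaks in these 2 classes. Neither count can thus be read as a trait of the groups.

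**Figure D3:**
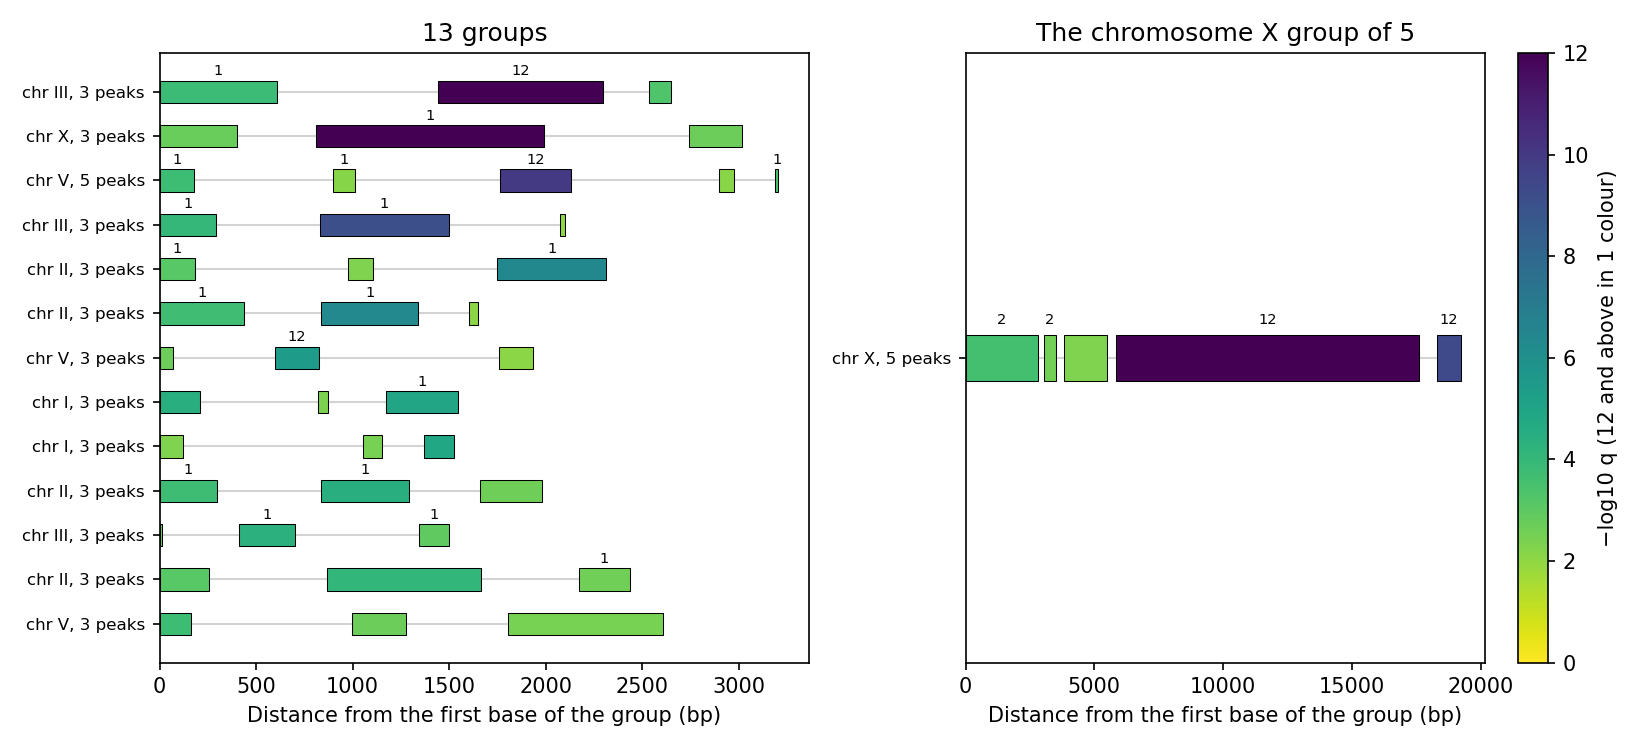
The map shows the 14 groups with 3 or more peaks, with bars for peaks drawn to scale by distance in bp from the first base of the group and coloured by −log10 q, and the digits 1 and 2 for an overlap with the replicate 1 and the replicate 2 list. The strongest peak was the middle one in 8 of the 12 groups of 3, and the chromosome X group of 5 (right, on its own scale of distance) covered 19215 bp.

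Close peaks were found in the replicate lists at shares whose intervals contained those of the whole combined list. An overlap of at least 1 bp with replicate 1 was seen for 133 of 250 close peaks (53.2%, exact binomial interval 46.8 to 59.5), beside 48.1% of the combined list and 47.3% of the other peaks. For replicate 2 it was seen for 25 (10.0%, interval 6.58 to 14.4), beside 7.07% of the combined list and 6.61% of the others. Both replicates were overlapped by 18 close peaks (7.20%), beside 4.69% of the list, and neither by 110 (44.0%), beside 49.6%. The interval of each of these 4 shares contains the share of the whole list. The share of the other peaks lay narrowly outside the interval for both replicates (4.30%, against 4.32 to 11.1). It also lay narrowly outside that for neither replicate (50.44%, against 37.75 to 50.39). Under some other settings the interval for replicate 1 or for replicate 2 did not contain the share of the other peaks either. With a largest gap of 500 bp, 62.6% of close peaks (interval 52.3 to 72.1) and 47.2% of the others overlapped replicate 1, and with 2000 bp the shares were 58.0% (interval 53.2 to 62.7) and 45.0%. Against replicate peaks with q below 0.001, the shares were 28.4% (interval 22.9 to 34.4) and 21.8% for replicate 1, and 3.20% (interval 1.39 to 6.21) and 0.748% for replicate 2. The share of the other peaks also lay outside the interval for replicate 2 with 2000 bp (9.40%, interval 6.83 to 12.5, against 6.35%), and narrowly for both replicates without chromosome I (58.8%, interval 51.5 to 65.8, against 51.0%, and 11.9%, interval 7.67 to 17.3, against 7.55%). Of the close peaks of the replicate 1 list, 15.0% overlapped replicate 2 (interval 8.65 to 23.5), against 7.24% of its other peaks. By its name the combined list draws on both ChIP libraries, so its overlap with their own lists was not tested.

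Overlap differed more between classes of width than between close and other peaks of the same class. Among peaks of 50 to 199 bp, 38.2% of close peaks (34 of 89) and 39.0% of the others overlapped replicate 1. Among peaks of 200 to 499 bp the shares were 77.6% (76 of 98) and 79.2%, and under 50 bp they were 17.5% (7 of 40) and 13.6%. Peaks of 500 bp or more were the exception, at 69.6% (16 of 23, interval 47.1 to 86.8) against 88.0% (66 of 75, interval 78.4 to 94.4), and these intervals overlapped. Of the 7 wide close peaks missing from replicate 1, 2 belonged to the chromosome X group of 5. For replicate 2 the shares were higher in each wider class, from 0 of 40 close peaks under 50 bp (upper exact bound 8.81%) to 8 of 23 at 500 bp or more (34.8%, against 30.7% of the others).

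**Figure D4:**
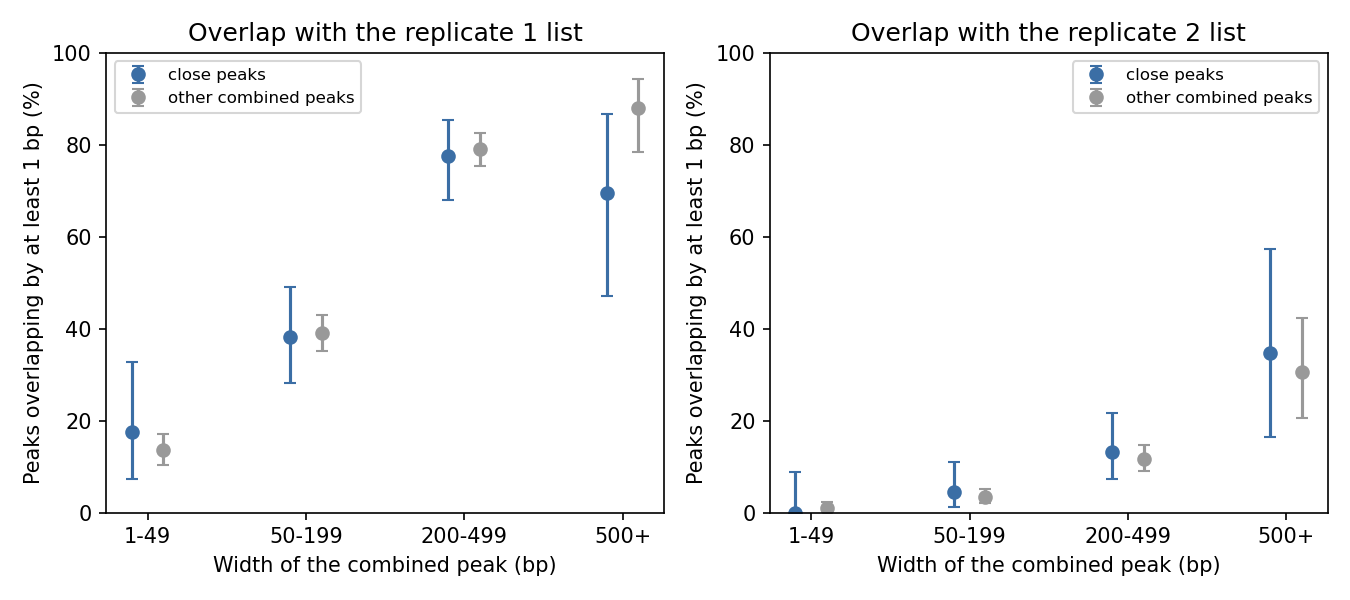
The plots show the share of combined peaks that overlapped the replicate 1 (left) and the replicate 2 list (right) by at least 1 bp, in 4 classes of width in bp, for close peaks and other combined peaks, with 95% exact binomial intervals. Close and other peaks of the same width had overlapping intervals in all 4 classes, for example 77.6% and 79.2% at 200 to 499 bp in replicate 1.

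The strongest peak of a group overlapped replicate 1 in 80 of 116 groups (69.0%) and the remaining close peaks in 53 of 134 cases (39.6%). In the 102 pairs, both peaks overlapped replicate 1 in 35, the stronger alone in 34, the weaker alone in 7 and neither in 26. The combined list by its name includes replicate 1, so choosing the stronger peak by combined q favours these directions. Neither share can thus be read against the 48.1% of the combined list that overlapped replicate 1. For replicate 2, 96 of the 116 groups had no overlapping peak, 17 had 1 and 3 had 2 or more. Those with at least 2 peaks in both replicate lists were the chromosome X group of 5 and pairs on chromosomes II and V. On chromosome II, 7405297 to 7405606 and 7406467 to 7406712 had q values of 4.62e-08 and 1.49e-06, with replicate 2 q values of 0.00462 and 0.000566. On chromosome V, 13413325 to 13413680 and 13414651 to 13415060 had q values of 3.62e-10 and 1.38e-05, with replicate 2 q values of 0.00481 and 0.00724. In these 2 pairs, every peak had a separate counterpart in both replicates.

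Where replicate 1 covered both sides of a gap, it nearly always left the gap open. Both flanking peaks overlapped replicate 1 at 43 of the 134 gaps, and at 40 of these replicate 1 had separate peaks on each side. The replicate 1 gap was within 100 bp of the combined gap in 38 of the 40, with a median of 551.5 bp against 542.5 bp. It was wider in 21, narrower in 17 and equal in 2. At the other 3 gaps a single replicate 1 peak ran across, at the 201 bp gap on chromosome I, the 216 bp gap on chromosome X and a gap of 226 bp on chromosome X between 10637058 and 10637284. No replicate 2 peak ran across a gap, but both flanking peaks overlapped replicate 2 at 4 of the 134 gaps, so few gaps could show it. Since the combined list by its name includes replicate 1, these matching gaps are not separate evidence.

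The share of gaps with both flanks in replicate 1 was 34.9% for gaps of 201 to 400 bp (15 of 43), 41.4% for 401 to 600 bp, 35.7% for 601 to 800 bp and 17.6% for 801 to 1000 bp (6 of 34, interval 6.76 to 34.5). Just beyond the limit it was 40.0% for 1001 to 1200 bp (14 of 35, interval 23.9 to 57.9), so the low share in the last class did not carry on across the limit. The narrower peak of each gap had a median width of 71.5 bp in the 801 to 1000 bp class, beside 113 bp over all 134 gaps and 158 bp just beyond the limit. The part of this width in the low share was not tested.

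The same rule applied to the replicate lists gave fewer close peaks. Replicate 1 had 100 close peaks of 1095 (9.13%) in 47 groups, and 80 of these 100 overlapped a close combined peak. Of its 53 close gaps, 41 had different combined peaks on each side, 5 were crossed by a single combined peak, 6 had a combined peak on 1 side and 1 had none. The 5 crossed gaps were 205 to 284 bp wide, and 1 was the cut in the widest chromosome X peak. Close replicate 1 peaks had a median width of 255 bp against 197 bp for its other peaks, the same direction as in the combined list. By its name the combined list includes replicate 1, so this match is not separate evidence. Replicate 2 had 6 close peaks of 153 in 3 pairs, with gaps of 973 bp on chromosome II, and of 333 and 988 bp within the chromosome X group of 5. All 6 overlapped close combined peaks.

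By chromosome, chromosome IV stood lowest. Close peaks were 12 of its 245 combined peaks (4.90%, exact binomial interval 2.56 to 8.40), whereas on the other chromosomes they were 13.2% of the peaks on X (50 of 380), 13.4% on III (35 of 261), 14.0% on I (56 of 401), 15.8% on V (45 of 284) and 18.4% on II (52 of 283, interval 14.0 to 23.4). The interval for chromosome IV did not overlap that of any other chromosome, and the other 5 intervals overlapped one another. Peak density was 14.0 per Mb on chromosome IV, which held 6 groups, and 13.6 on chromosome V, which held 20. Density over a whole chromosome does not show how peaks are spread along it, and its part in these counts was not tested. The 6 groups on chromosome IV were all pairs, 8 of their 12 peaks overlapped replicate 1 and none overlapped replicate 2. In replicate 1, with the same rule, 8 of 163 chromosome IV peaks were close (4.91%, interval 2.14 to 9.44), and so were 8 of 157 on chromosome I (5.10%, interval 2.23 to 9.79), beside 10.2% to 11.9% on the others. In replicate 1 these intervals overlapped those of the other chromosomes. Peaks of a group are not independent and chromosomes have no replicates, so no test was made and the cause was not tested.

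**Figure D5:**
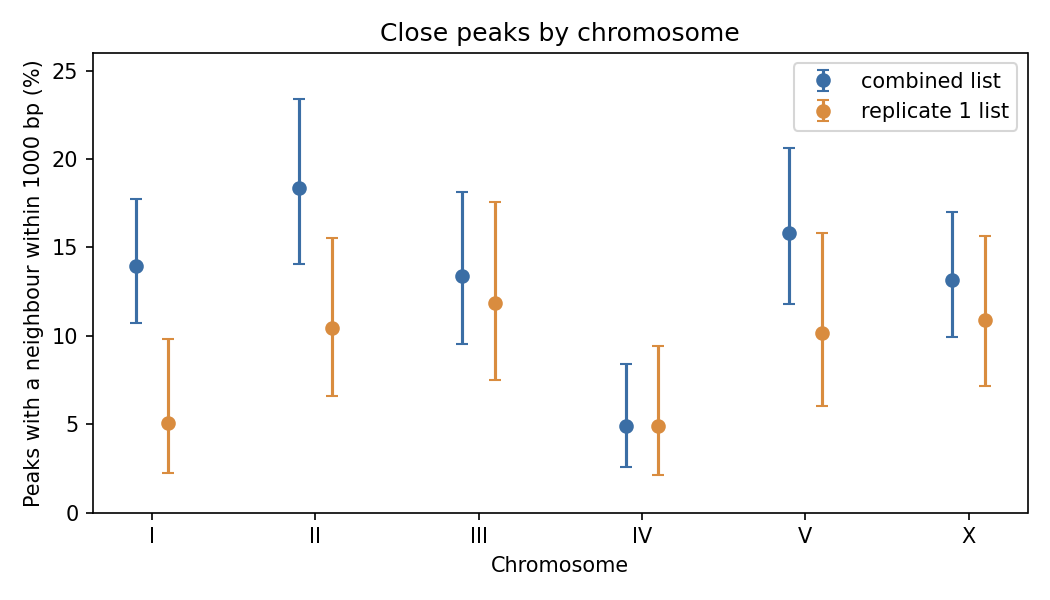
The plot shows the share of each chromosome's peaks (percent, vertical axis) that had a neighbour within 1000 bp, for the combined and the replicate 1 list, with 95% exact binomial intervals. Chromosome IV had the lowest share in both lists, 4.90% and 4.91%, and chromosome I had 14.0% in the combined list and 5.10% in replicate 1.

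Close combined peaks on chromosome I overlapped replicate 1 in 19 of 56 cases (33.9%, interval 21.8 to 47.8), and the other combined peaks of that chromosome in 33.6%. On chromosome X 31 of 50 did (62.0%) and on chromosome III 23 of 35 (65.7%). Close peaks on chromosome I were short, with a median width of 119.5 bp beside 117 bp for the other peaks there, and those on chromosome X were the widest, with 319.5 bp beside 184 bp. The replicate 1 overlap on chromosome I was thus low among close and other peaks alike.

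Over the 5 autosomes, a larger share of close peaks than of other peaks lay near the middle. The central 33.3% of each autosome, measured up to the last peak in any list, held 97 of 200 close autosomal peaks (48.5%, interval 41.4 to 55.7) and 457 of 1274 others (35.9%, interval 33.2 to 38.6). Counted by group, 46 of 93 lay there (49.5%, interval 38.9 to 60.0). Under some other settings the interval for close peaks contained the share of the other peaks. With a largest gap of 500 bp it was 35.3 to 58.5 against 37.1%, and with q below 0.001 it was 35.05 to 58.55 against 38.9%. The same held for replicate 1 alone (36.3 to 59.8 against 40.4%) and for peaks of 200 bp or more (35.8 to 64.2 against 41.9%). With a largest gap of 2000 bp it did not (37.6 to 48.0 against 35.9%). The share of close peaks was 55.6% on V, 54.3% on III, 48.2% on I and 46.2% on II, each above that of the other peaks on the same chromosome (39.3%, 28.3%, 34.8% and 39.4%). It was below on chromosome IV (2 of 12 against 37.8%) and on X (24.0%, 12 of 50, against 29.4%). The intervals for close peaks on I (34.7 to 62.0) and II (32.2 to 60.5) contained the share of the other peaks. Those on III (36.6 to 71.2) and V (40.0 to 70.4) did not. Counted by group, the interval on each single autosome contained the share of the other peaks. On chromosome II, 1 of 24 groups lay in the first 33.3% of the chromosome, at 202037 to 203044, beside 41 of its 231 other peaks.

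Groups also had nearer neighbours beyond the limit, which is a description only. These distances come from the same positions that chose the groups, and keeping peaks with a near neighbour can favour stretches rich in peaks. The nearest combined peak outside a group lay at a median of 4568.5 bp (interval 3769 to 7690, 116 groups), and the nearest peak to each of the 1604 other peaks at 13877 bp (interval 12614 to 15745). Another peak lay within 5000 bp of 59 groups (50.9%, interval 41.4 to 60.3) and of 436 other peaks (27.2%, interval 25.0 to 29.4). In 26 of the 116 groups, another group lay within 50 kb, and the nearest 2 groups were 1132 bp apart.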

How the data were processed

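The 4 libraries were grouped as ChIP or input by title. Per the file headers, the 3 peak lists are on WormBase WS220 and name PeakSeq as the source of each peak. The authors' q-value of each peak, below 0.01 in every list, was used as deposited to describe and rank peaks within a list. Aligner, caller settings, read depth and the way the combined list was made are not stated. Members and lists were chosen with earlier results of these data known. The regions named were groups of 3 or more peaks, the 10 groups with the lowest q, the strongest group of each chromosome, the 5 smallest gaps, the 3 gaps nearest 1000 bp on either side (ties kept), groups with at least 2 peaks in both replicates, and gaps bridged by 1 replicate peak. Groups with 2 peaks of q below 1e-05, the pair nearest the left end of chromosome II and single chromosome X peaks were named after their values were seen. Widths include both ends, and overlap required 1 bp. No test was run, because positions chose the members and all lists share libraries. Intervals are 95% exact binomial or, for medians, order-statistic intervals. Grouping and overlap counting were tested on simulated lists. No WS220 genome was used, so no sequence is shown and no peak was assigned to a gene. Python 3.11.15, NumPy 2.4.6, SciPy 1.17.1, pandas 2.3.3 and Matplotlib 3.10.9 were used.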

Additional observations from a re-analysis of the deposited data

How the results depend on the processing

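Of 138 values recomputed under alternatives, 87 stayed within the interval of the reported value (counts, within 1.5 times) and 51 did not. Some settings favour a move by themselves. Keeping low q raises −log10 q, leaving out short peaks raises the width, and leaving out chromosome I raises the shares of the others. The tally is thus a description only. No value changed direction where the other peaks lay outside the interval of the close peaks (width, shares on chromosomes II and IV, and central share). Among the rest, some did. Chromosome I went from 22.4% against 21.5% of the others to 8.00% against 15.0% in replicate 1 alone. Chromosome V went from 18.0% against 14.9% to 10.1% against 15.6% with a largest gap of 500 bp. Chromosome X went from 20.0% against 20.6% to 29.7% against 25.8% for peaks of 200 bp or more. With a largest gap of 500 bp there were 99 close peaks in 48 groups, with a median width of 222 bp, 62.6% overlap with replicate 1 (others 47.2%) and 10.1% on chromosome V. With 2000 bp there were 436 in 188 groups and 8.72% on chromosome IV. With only combined peaks of q below 0.001 there were 87 in 43 groups, with a median width of 286 bp, a median −log10 q of 4.44, overlaps of 72.4% and 14.9% with replicates 1 and 2, and 21.8% on chromosome III, 2.30% on IV and 13.8% on X. Without peaks under 50 bp the width was 239.5 bp, −log10 q 3.86 and replicate 1 overlap 63.3%. Without chromosome I, 26.8% were on II and 25.8% on X. Covering 50% of the peak lowered the replicate 2 overlap to 2.80%, and replicate peaks with q below 0.001 gave 28.4% and 3.20% (others 21.8% and 0.748%). For peaks of 200 bp or more, chosen after seeing the data like the setting without the widest peak, there were 74 in 34 groups, with 362.5 bp, a −log10 q of 4.50, overlaps of 73.0% and 20.3% and shares of 13.5% on I and 29.7% on X. There, 80.3% of the other peaks overlapped replicate 1, within the interval for close peaks (61.4 to 82.6).

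With 1 replicate left out, the rule was applied to the other list alone. Close peaks ranged from 6 to 100, groups from 3 to 47, median width from 255 to 389 bp and −log10 q from 2.28 to 3.11. Replicate 2 peaks overlapped replicate 1 in 66.7%, and replicate 1 peaks overlapped replicate 2 in 15.0%. Shares ranged from 0 to 8.00% on chromosome I, 21.0% to 33.3% on II, 0 to 21.0% on III, 0 to 8.00% on IV, 0 to 17.0% on V and 25.0% to 66.7% on X. The central autosomal share was 48.0% to 100% on 2 peaks. No paired analysis was possible because no values for inputs were used here and nothing was fitted. Without read depths, absence of a peak from a list does not show absence of binding.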
